A study of Mus musculus with 15 samples.

Results

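The junctions described here joined the upstream end of Sμ to DNA in a 5-kb window holding the Sμ repeats, in the orientation of a deletion. In a deletion, the sequence in between is lost without any switch to another isotype. Not all of them lay inside Sμ, since some reached Ighm exons, and 90 were no deletions. All are called internal Sμ joins here. They were taken from 10 tables of CSR-HTGTS-seq, a sequencing assay in which a primer next to Sμ (the bait) reads across a broken end into whatever it was joined to (the prey). A junction was a member if its prey lay on chromosome 12 between 114660000 and 114665000 (mm9) and on the same strand as the bait, the orientation of a deletion. In all, 11824 of the 42200 junctions in the 10 tables met this rule, and each library contributed between 341 and 2473. The same window held 1710 junctions of the other, inversional orientation, which are not members.

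All libraries came from splenic B cells of C57BL/6 mice activated with alphaIgD-dextran, LPS and IL4, and the groups were WT (3 libraries), XLF-/- (2), Shld1-/- (3) and Shld1-/-XLF-/- (2). The genotypes are those printed with each library in the study's figures. For 6 of the 10 libraries they are not the genotype of the deposited labels. WT 2 is labelled Shld1-/-, WT 3 is labelled XLF-/-, XLF-/- 1 and Shld1-/- 1 are labelled WT, Shld1-/- 3 is labelled Shld1-/-XLF-/- and Shld1-/-XLF-/- 1 is labelled XLF-/-. The other 4 libraries (WT 1, XLF-/- 2, Shld1-/- 2 and Shld1-/-XLF-/- 2) carry 1 genotype in both sources, and results are given for them and for the labels as well. The labels also list Igh alleles under target locus (a non-coding Sm-Sa deletion, an Ia deletion, CBEs inserted downstream of Cg2a) that the study's methods do not describe for these mice. Sμ and Sγ1 junctions were present in all 10 libraries. The libraries held 1590 to 8531 junctions each, and shared no read names. The study describes its libraries as made from separate mice of each genotype, although the labels do not say which mouse gave which library.

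In class switch recombination, activation-induced deaminase starts DNA breaks in the repetitive switch regions that lie upstream of each heavy chain constant gene, and joining a break in Sμ to a break in a downstream switch region replaces the IgM constant exons. Breaks at both sides of Sμ can also be joined to each other, which gives an internal deletion. SHLD1 is a subunit of shieldin, which works with 53BP1 to protect broken ends from resection, and XLF is a factor of classical non-homologous end joining. Joins without any shared base are typical of classical end joining, whereas alternative pathways more often use microhomology, bases present at both ends and retained once.

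Distances were counted from the bait end, the first base of the bait read at chr12:114664909 (mm9, minus strand), toward the constant genes. No mm9 genome was used here, so germline sequence is shown from GRCm38, where the bait had a single match on chromosome 12. Outside the repeats, all 4287 preys with a unique match over their first 40 bases lay at the same distance from the bait in both builds. Inside the repeats this held for 511 unique matches and not for 208 (71.1%), so single positions there are uncertain. Of the 6117 preys in the repeats, 2880 had no exact match over these bases in the GRCm38 sequence around Sμ. Another 1262 matched several places, and 1256 were too short. The next lines show the first 130 bases of the bait side at chr12:113426569-113426698, the stretch of the repeats richest in AGCT at chr12:113424768-113424927, and the start of the first Ighm exon at chr12:113422671-113422790, all on the minus strand. Capitals mark AGCT, a preferred target motif of the deaminase, in the first and second sequence and exon bases in the third.
Bait side: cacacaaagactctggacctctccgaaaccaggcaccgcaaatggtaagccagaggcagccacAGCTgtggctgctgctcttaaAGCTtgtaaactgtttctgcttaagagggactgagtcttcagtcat
Repeat core: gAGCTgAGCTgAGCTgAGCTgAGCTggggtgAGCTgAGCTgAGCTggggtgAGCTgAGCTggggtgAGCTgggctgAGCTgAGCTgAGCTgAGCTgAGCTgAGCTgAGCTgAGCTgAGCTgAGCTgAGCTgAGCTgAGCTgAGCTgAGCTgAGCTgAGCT
Ighm exon start: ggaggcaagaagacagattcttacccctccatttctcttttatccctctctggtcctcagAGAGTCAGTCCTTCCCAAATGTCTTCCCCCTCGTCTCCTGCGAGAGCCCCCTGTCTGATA
The bait side holds AGCT at 2 places, whereas the 160 bases of the repeats hold it 28 times. Counted in 500-bp steps from the bait end, AGCT occurred 4, 5, 40, 73, 57, 20, 8, 2, 3 and 3 times in GRCm38. The members, placed in mm9, numbered 2676, 822, 1230, 2955, 2436, 691, 361, 290, 221 and 142.

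The next lines show, for each kind of join, the bait and prey pair found in the most libraries, with 30 bases of bait, the shared or inserted bases in capitals, and up to 30 aligned bases of prey after them. In the direct join the prey is in capitals.
Direct: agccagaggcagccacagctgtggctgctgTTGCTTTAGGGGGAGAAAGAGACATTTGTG
MH of 1 to 3 bp: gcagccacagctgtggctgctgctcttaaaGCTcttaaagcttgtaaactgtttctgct
MH of 4 bp or more: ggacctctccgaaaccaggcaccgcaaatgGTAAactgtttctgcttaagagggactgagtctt
Insertion: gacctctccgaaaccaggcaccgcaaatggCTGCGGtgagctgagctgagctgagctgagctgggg
The direct join, from 114664833 to 114664780, was found 3 times in 2 libraries, both WT. The pair with 4 shared bases, from 114664862 to 114664820, was found 10 times in 9 libraries. The pair with 6 inserted bases led into the repeats at 114663339 and was found 5 times in 4 libraries. The pair with 3 shared bases, from 114664822 to 114664833, is no deletion. Its prey began 11 bp before its own bait break, so a short stretch of sequence is present a second time in the read. It was found 8 times, in all 7 libraries that lack SHLD1, XLF or both and in none of the 3 WT libraries. In 6 of these 8 reads the prey aligned over only 29 bases and ended at the same base, which is where the line shown stops, and in the longest it aligned over 89.

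Members fell into a peak close to the bait, a sparse stretch, the repeats and a tail. The repeat core is here the span of rows that the authors' tables name S, 1236 to 2402 bp from the bait end, the region downstream of it runs to the end of the window, and the near region covers the first 500 bp. In WT, 62.2, 58.3 and 56.4% of members (WT 1 to 3) lay in the core, 21.4, 23.7 and 24.8% in the near region and 8.84, 8.49 and 7.51% downstream of the core. The mutant libraries kept the near peak but had a smaller share of members in the core and a larger share downstream.

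**Figure D1:**
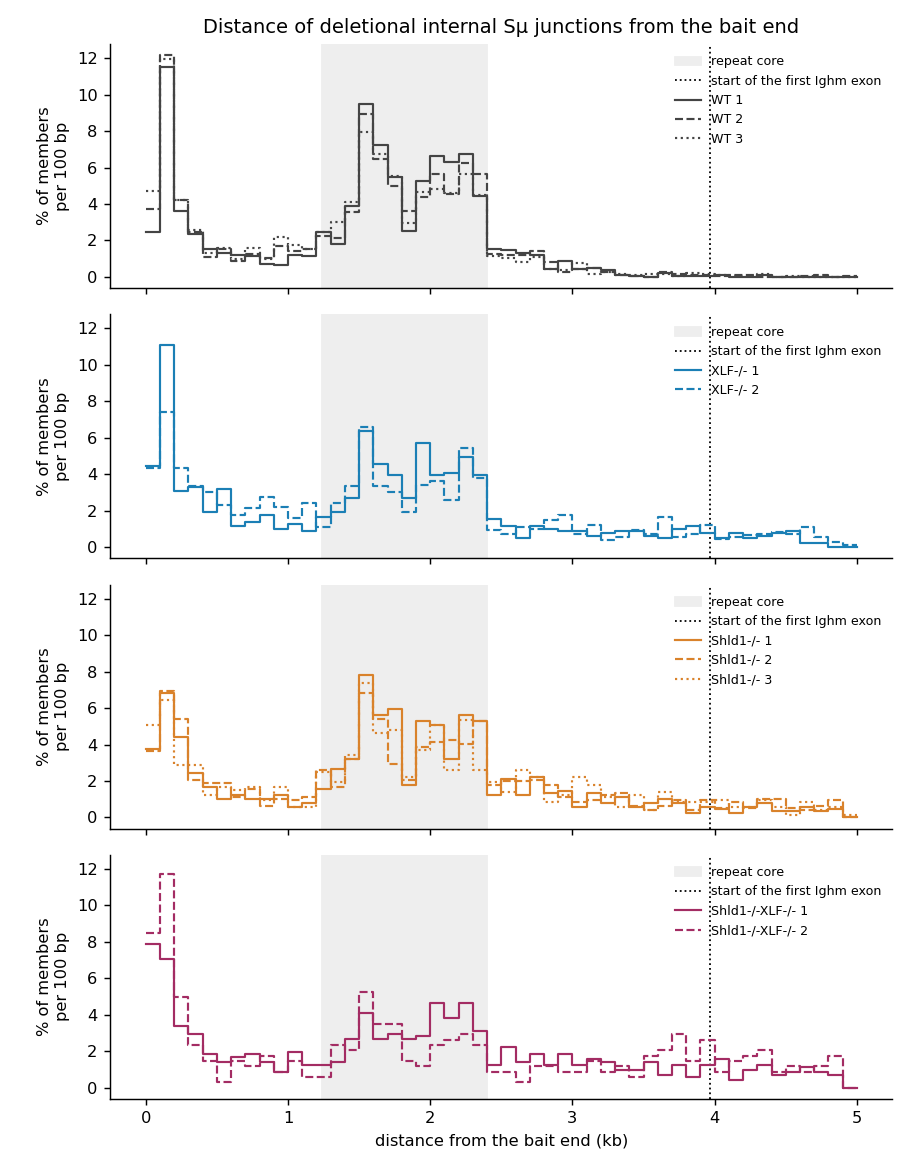
Percent of a library's members in each 100 bp of distance from the bait end (x axis, kb), 1 panel per genotype and 1 line per library. Shading marks the repeat core and the dotted line the start of the first Ighm exon. WT members ended almost entirely before 3 kb, whereas all mutant libraries had a tail that ran to the end of the window or, in XLF-/- 1, close to it.

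Downstream of the core, XLF-/- libraries held 19.0 and 21.7% of their members, Shld1-/- libraries 21.1, 25.4 and 26.8% and Shld1-/-XLF-/- libraries 29.7 and 33.1%. All 7 mutant values were above the highest WT value of 8.84%, and both double-mutant values were above all single-mutant values. Averaged over XLF status, SHLD1 loss raised this share by 13.6 percentage points (16.2 with XLF and 11.1 without it, exact permutation p = 0.0167). Averaged over SHLD1 status, XLF loss raised it by 9.53 points (12.1 with SHLD1 and 6.97 without it, exact permutation p = 0.01). Both are the smallest p these exact permutation tests allow (adjusted p = 0.03 over 27 tests added after seeing the data). The difference between the SHLD1 effects with and without XLF did not pass (-5.11 points, exact permutation p = 0.633). That test permuted SHLD1 status itself, so it cannot decide whether effects present in both backgrounds are equal.

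The core share moved the other way. It was 46.2 and 40.5% in XLF-/-, 52.9, 46.1 and 45.9% in Shld1-/- and 36.3 and 30.2% in Shld1-/-XLF-/- libraries. SHLD1 loss lowered it (-10.4 points, exact permutation p = 0.0167) and so did XLF loss (-15.3 points, exact permutation p = 0.01). The near share ranged from 18.5 to 29.0% over all libraries and passed neither test (SHLD1 -0.60 points, exact permutation p = 0.833, XLF 3.37 points, exact permutation p = 0.06). The SHLD1 difference had opposite signs with and without XLF. The near share was 18.5 to 19.9% in Shld1-/-, below all WT values, and the SHLD1 difference was -4.12 points with XLF and 2.92 points without it. Stated as the share at 500 bp or farther, these effects differed by -7.04 points (exact permutation p = 0.0333). This p is from an alternative setting, was not adjusted, and refers to no SHLD1 effect in either background. Shares of members are tied to each other, since they sum to the whole. Set against all Igh junctions of a library instead, members downstream of the core made up 3.41, 2.59 and 2.24 per 100 in WT, 6.83 and 6.38 in XLF-/-, 9.01, 8.498 and 7.74 in Shld1-/- and 8.70 and 9.75 in Shld1-/-XLF-/-. On that scale too, all mutant libraries were above all WT libraries, but the double mutants overlapped with Shld1-/-. Core members were 24.0, 17.8 and 16.9 per 100 in WT and 16.6 and 11.9 in XLF-/-. They were 22.6, 15.4 and 13.2 in Shld1-/- and 10.6 and 8.89 in Shld1-/-XLF-/-. For the core, Shld1-/- thus overlapped with WT on that scale, while all libraries without XLF were below all WT libraries.

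**Figure D2:**
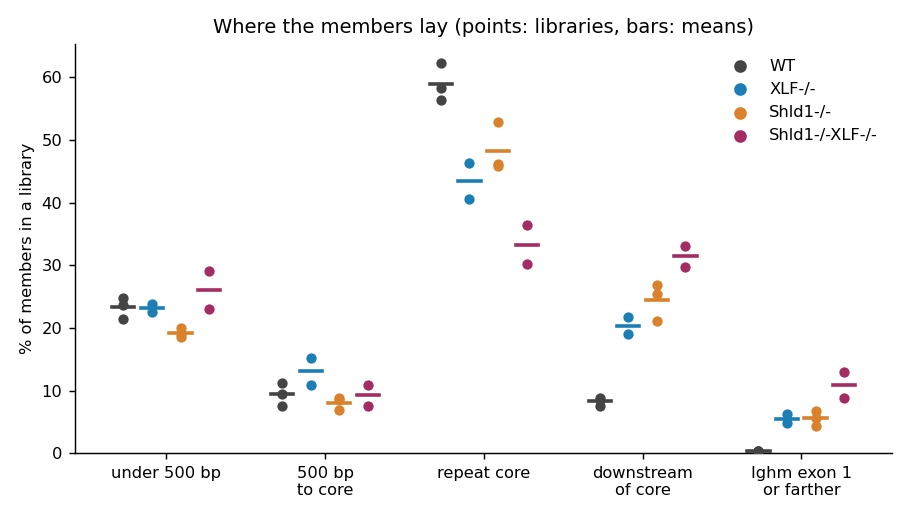
Percent of members (y axis) in each region of distance (x axis), with points for libraries and bars for the mean of each genotype. The last region is a part of the one before it. WT is highest in the repeat core and lowest downstream of it, and Shld1-/-XLF-/- the reverse.

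The tail reached the constant gene itself. The first exon of Ighm, which encodes the first constant domain of IgM, starts 3968 bp from the bait end at chr12:113422730 (GRCm38) and runs to 113422416, and the second exon starts 4394 bp from it. Members at or past the start of the first exon were 0.316, 0.364 and 0.444% in WT, 4.84 and 6.29% in XLF-/-, 4.42, 6.75 and 5.62% in Shld1-/- and 8.87 and 12.9% in Shld1-/-XLF-/-. In WT these were 5, 9 and 10 junctions, and in the double mutants 63 and 44 from much smaller libraries. SHLD1 loss raised the share by 5.27 points (exact permutation p = 0.0167) and XLF loss by 5.24 points (exact permutation p = 0.01), with nearly equal SHLD1 effects with XLF (5.22 points) and without it (5.32 points).

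By the measures of the whole window, the shift depended on where distance was divided and on the rows of the repeat core that the authors flagged for mapping quality. The median distance was 1659, 1600 and 1562 bp in WT, 1657 and 1571 bp in XLF-/-, 1768, 1775 and 1750 bp in Shld1-/- and 1819 and 1669 bp in Shld1-/-XLF-/- libraries. Every Shld1-/- value was above every WT value, while XLF-/- and WT overlapped. SHLD1 loss added 144 bp (exact permutation p = 0.0167, adjusted p = 0.05 over the 24 planned tests, but 122 bp with exact permutation p = 0.05 without XLF-/- 2) and XLF loss -6.67 bp (exact permutation p = 0.87). Without the flagged rows SHLD1 loss added 593.8 bp (exact permutation p = 0.0167). The share of members 1 kb or farther was 73.6, 69.96 and 67.9% in WT, 67.6 and 66.3% in XLF-/-, 75.5, 73.8 and 74.1% in Shld1-/- and 69.7 and 65.4% in Shld1-/-XLF-/-. It fell with XLF loss (-5.21 points, exact permutation p = 0.01) and did not pass for SHLD1 loss (2.28 points, exact permutation p = 0.133). With the limit at 2000 bp the XLF difference was of the opposite sign (4.48 points, exact permutation p = 0.02) and SHLD1 loss passed as well (9.90 points, exact permutation p = 0.0167). Without the flagged rows and with the limit at 1 kb, the XLF difference was 0.82 points (exact permutation p = 0.65) and the SHLD1 difference 9.88 points (exact permutation p = 0.0167). The XLF call was also lost without XLF-/- 2 (-4.88 points, exact permutation p = 0.075).

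As a share of all Igh junctions, members made up 38.5, 30.5 and 29.9% in WT, 36.0 and 29.3% in XLF-/-, 42.7, 33.4 and 28.8% in Shld1-/- and 29.3 and 29.4% in Shld1-/-XLF-/-. The genotypes overlapped, and neither SHLD1 loss (-0.65 points, exact permutation p = 0.883) nor XLF loss (-2.97 points, exact permutation p = 0.43) passed. Within the 20 kb around Sμ the share did fall with SHLD1 loss (-26.2 points, exact permutation p = 0.0167) and with XLF loss (-17.5 points, exact permutation p = 0.01), so the result rests on the denominator. Of the deletional junctions from 114653500 up to the same upper limit, members were 99.6 to 99.9% in WT, 89.7 to 91.7% in XLF-/-, 67.3 to 78.58% in Shld1-/- and 66.4 to 67.1% in Shld1-/-XLF-/- libraries. The 5-kb window thus ends inside the tail of the mutant libraries.

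Direct joins, those with neither a shared nor an inserted base, were counted among members without an insertion. They made up 31.4, 33.2 and 35.9% in WT, 17.3 and 12.6% in XLF-/-, 19.9, 17.7 and 19.8% in Shld1-/- and 9.88 and 7.5% in Shld1-/-XLF-/- libraries. All mutant values were below all WT values, and both double-mutant values were the lowest of the 10. SHLD1 loss lowered the share by 10.3 points (exact permutation p = 0.0167, adjusted p = 0.05) and XLF loss by 14.5 points (exact permutation p = 0.01, adjusted p = 0.048). After adjustment, the XLF difference was thus below 0.05 and the SHLD1 difference was not. The SHLD1 effect was -14.3 points with XLF and -6.24 points without it, a difference that did not pass (exact permutation p = 0.333). Since the test permuted SHLD1 status itself, it cannot decide whether these effects are equal.

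Members with 4 or more shared bases rose in turn, from 9.83, 10.6 and 9.93% in WT to 19.9 and 26.2% in XLF-/-, 19.2, 24.4 and 25.5% in Shld1-/- and 30.3 and 23.6% in Shld1-/-XLF-/- libraries. The double mutants overlapped with both single mutants. SHLD1 loss (8.40 points, exact permutation p = 0.0333) and XLF loss (8.42 points, exact permutation p = 0.03) passed unadjusted, with an adjusted p of 0.08 for both. The SHLD1 call was lost without WT 1, WT 2, WT 3, XLF-/- 1 or Shld1-/-XLF-/- 1, and the XLF call without each of these and without XLF-/- 2 or Shld1-/- 1. All these differences stayed between 6.71 and 10.1 points. The mean number of shared bases was 1.44 to 1.48 in WT, 2.24 and 2.64 in XLF-/-, 2.17 to 2.50 in Shld1-/- and 2.86 and 2.75 in Shld1-/-XLF-/- libraries. Median aligned prey length moved with genotype too, from 69 to 75 bases in WT to 100 and 106 in the double mutants, and its part in these results was not tested.

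**Figure D3:**
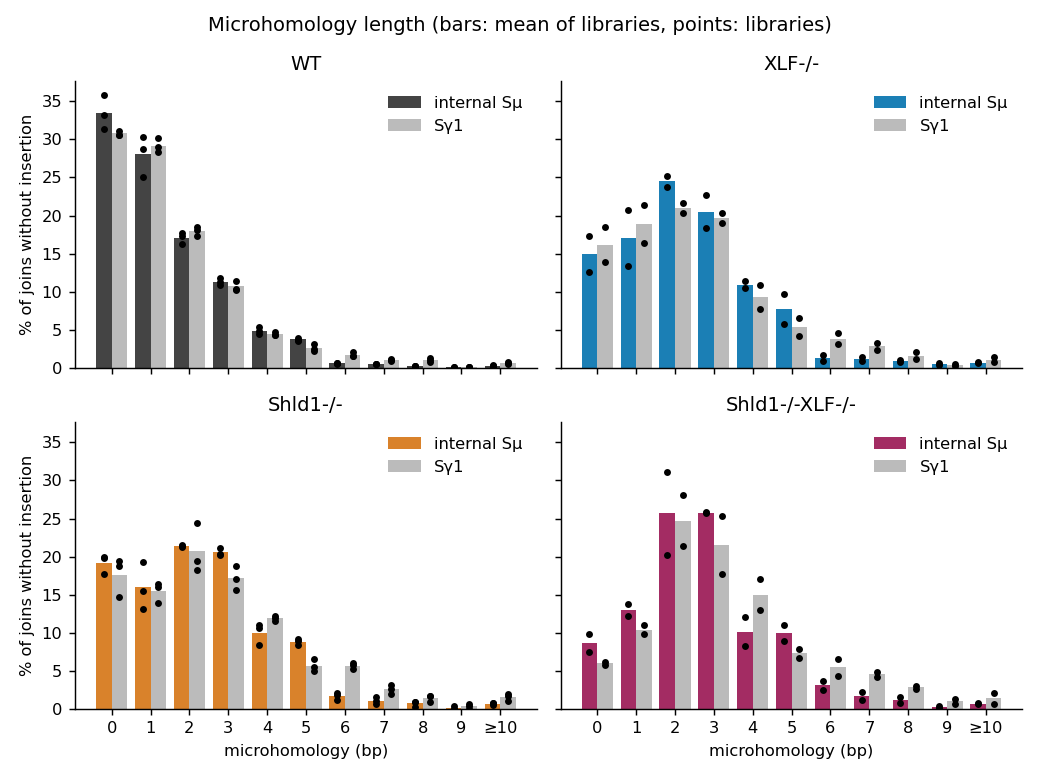
Percent of joins without insertion (y axis) by number of shared bases (x axis, 10 and more pooled), with coloured bars for internal Sμ and grey bars for Sγ1 (means of libraries) and points for libraries. In WT the share falls from 0 bases on, whereas in the double mutants it peaks at 2 and 3 bases.

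Insertions were counted among all members. They were present in 25.5, 25.8 and 24.8% in WT, 17.5 and 17.6% in XLF-/-, 23.4, 23.3 and 22.6% in Shld1-/- and 15.9 and 17.9% in Shld1-/-XLF-/- libraries. The 4 libraries without XLF were all below the 6 with it. XLF loss lowered insertions by 7.02 points (exact permutation p = 0.01, adjusted p = 0.048), whereas the SHLD1 difference of -1.45 points did not pass (exact permutation p = 0.05, adjusted p = 0.109). Those insertions that were made were longer in the mutants. Of the insertions, 24.3, 26.7 and 24.9% had 5 bases or more in WT, 36.5 and 42.6% in XLF-/-, 35.4, 33.0 and 35.8% in Shld1-/- and 46.0 and 59.0% in Shld1-/-XLF-/- (SHLD1 11.2 points, exact permutation p = 0.0167, XLF 16.0 points, exact permutation p = 0.01). The SHLD1 call was lost without XLF-/- 1 (9.67 points, exact permutation p = 0.05), and with any 1 library left out this difference ranged from 7.95 to 14.5 points.

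The kind of join differed along Sμ. Insertions were most frequent in the core, at 31.98, 33.8 and 31.7% of members in WT and 32.4, 31.98 and 31.94% in Shld1-/-, against 23.97 and 21.7% in XLF-/- and 20.9 and 24.3% in Shld1-/-XLF-/- libraries. Downstream of the core they were 10 to 15.9% and near the bait 13.3 to 18.2% over all libraries, with genotypes overlapping. Between the near region and the core they were 18.3, 14.9 and 16.5% in WT and 11.6 and 10.9% in XLF-/-. They were 14.3, 13.4 and 18.75% in Shld1-/- and 10.4 and 0% in Shld1-/-XLF-/-, the last from 26 members. There too all libraries without XLF were below all with it, a difference that was not tested. The core exceeded the downstream region in 10 of 10 libraries, by 15.6 points on average (exact permutation test by sign flips, p = 0.00195). XLF loss changed insertions in the core (-9.59 points, exact permutation p = 0.01), whereas its differences near the bait (0.90 points, exact permutation p = 0.44) and downstream (0.0035 points, exact permutation p = 1) did not pass. The XLF effect on the core minus downstream difference was -9.59 points (exact permutation p = 0.01). In the core, 36.3% of the inserted sequences held AGC or GGG, against 9.13% near the bait and 10.97% downstream.

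Most of the core is open to a mapping limit. There, 76.6 to 81.4% of members carried the authors' flag for mapping quality, and no other region had a flagged row. Within the core, insertions were found in 21.9 to 35.6% of flagged and 16.7 to 32.4% of the unflagged members of a library, and flagged preys were shorter (median 51 to 62 against 72.5 to 110.5 bases). Without the flagged rows, insertions still fell with XLF loss over all members (-2.74 points, exact permutation p = 0.02), and the core still exceeded the downstream region by 10.6 points (exact permutation p = 0.00195), but the XLF effect on that gap no longer passed (-6.89 points, exact permutation p = 0.07).

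Direct joins and microhomology also varied with position. Members with 4 or more shared bases were rarer near the bait than downstream of the core in 10 of 10 libraries, by 11.97 points on average (exact permutation test by sign flips, p = 0.00195). In WT, direct joins were as frequent downstream of the core (33.9, 32.3 and 28.2%) as in it (29.0, 31.0 and 33.9%). In single mutants they were rarer downstream, at 6.72 and 6.97% against 20.7 and 17.5% in XLF-/- and 17.2, 6.70 and 10% against 19.8, 22.2 and 26.3% in Shld1-/-. Double mutants were low in both, at 6.91 and 7.37% downstream and 8.33 and 8.97% in the core. SHLD1 loss thus widened the core minus downstream gap with XLF (11.6 points) and narrowed it without XLF (-10.7 points), and the difference of these effects was -22.3 points (exact permutation p = 0.0333, adjusted p = 0.0558). Without the rows flagged for mapping quality it was -20.1 points (exact permutation p = 0.0667), and it also missed the threshold without WT 1, WT 2, Shld1-/- 2 or Shld1-/- 3 (-19.9, -21.8, -20.3 and -19.92 points).

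**Figure D4:**
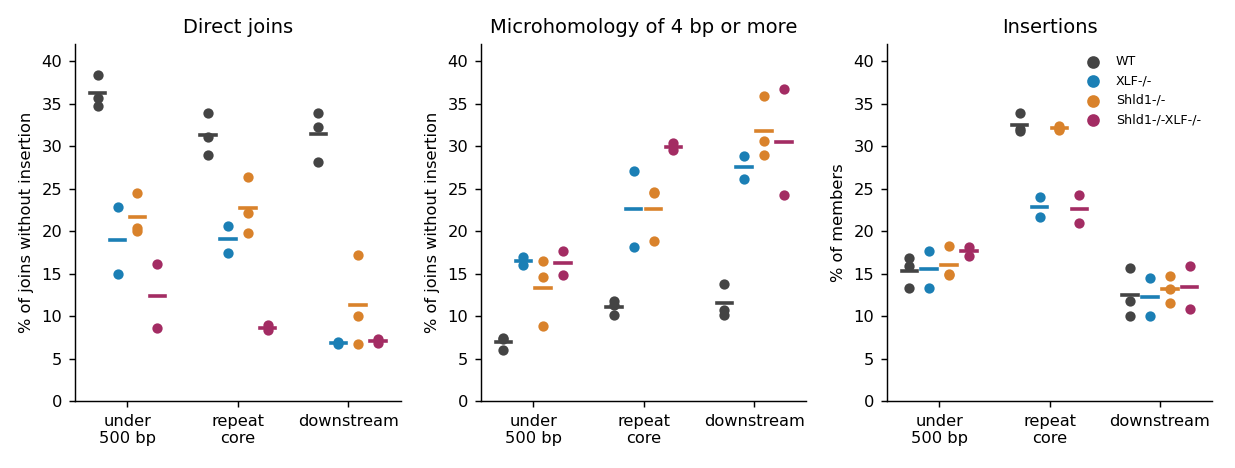
Direct joins, microhomology of 4 bp or more (both as percent of joins without insertion) and insertions (percent of members) by region (x axis), with points for libraries and bars for genotype means. WT keeps its direct joins downstream of the core, and of the regions drawn, insertions differ by XLF status in the core. The stretch between the near region and the core is not drawn.

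The sequence AGCTG was the most used microhomology of 4 bp or more in the core, with 211 of 697 such joins (30.3%), followed by GCTG (145), AGCT (84) and CTGAG (70). Near the bait no sequence stood out, the first being AAGC with 13 of 237. Among core joins without insertion, AGCTG was shared in 1.94, 2.83 and 2.42% in WT, 5.07 and 10.2% in XLF-/-, 7.72, 8.61 and 7.46% in Shld1-/- and 11.3 and 12.8% in Shld1-/-XLF-/- libraries. All mutant values were above WT. SHLD1 loss added 4.97 points (exact permutation p = 0.0167) and XLF loss 4.68 points (exact permutation p = 0.01). Without the flagged rows these were 2.37 points (exact permutation p = 0.417) and 6.84 points (exact permutation p = 0.03).

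This sequence also marks the most used bait break. The position 114664842, 67 bp into the bait, ended 498 of the 11824 baits (4.21%), followed by 114664855 with 353 and 114664860 with 310. It is the last base of the single AGCTG in the bait stretch shown above, the other positions end CAGAG and TAAGC. In a join with microhomology the shared bases are counted to the bait, so a break is placed at their end. Of the 363 core members at 114664842, 202 shared AGCTG with their prey. This bait position served 3.05 to 3.74% of core members in WT, 6.34 and 11.6% in XLF-/-, 8.06 to 9.23% in Shld1-/- and 14.6 and 15.5% in Shld1-/-XLF-/- libraries. Near the bait its share was 0.358 to 2.44% over all libraries.

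No single prey position dominated. The most used was 114662629, 2280 bp from the bait end, with 50 members in 8 libraries, followed by 114664779 (40), 114663339 (40), 114664807 (38) and the tied 114663309 and 114662769 (34 each). All 4 positions in the core begin with TGAGC in GRCm38 at the same distance, with the uncertainty of positions in the repeats. The pair near the bait, at 130 and 102 bp, begin with TGCTT and GCTTA and were found in all 10 libraries. Among direct joins, whose breaks are placed without overlap, 12.3% of 2069 bait breaks lay at or in an AGCT against 7.94% of the positions 24 to 149 bp into the bait. On the prey side outside the core, 9.39% of 1150 lay there against 7.88% of positions. By genotype these were 9.51% of 799 in WT, 5.66% of 106 in XLF-/-, 10.1% of 189 in Shld1-/- and 12.5% of 56 in Shld1-/-XLF-/-, so XLF-/- lay below the share of positions. These shares were not tested.

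Identical pairs of bait and prey position recurred between libraries in all regions. The share of members with a pair found in 2 or more libraries was 32.7% near the bait, 17.3% in the core and 13.6% downstream, while the core held the larger number of such members (1061 against 874 near the bait). Members whose prey lay at or above their own bait break, as in the duplication shown above, numbered 90 and were 0.189, 0.283 and 0.133% in WT, 0.892 and 1.48% in XLF-/-, 0.883, 1.04 and 1.78% in Shld1-/- and 1.83 and 2.93% in Shld1-/-XLF-/-. These junctions meet the strand rule but are not deletions. Their share rose with SHLD1 loss (1.11 points, exact permutation p = 0.0167) and with XLF loss (1.07 points, exact permutation p = 0.01). Of the 90, 22 had fewer than 40 aligned prey bases. Among members with 40 or more, the differences were 0.74 points for SHLD1 loss (exact permutation p = 0.0333) and 1.01 points for XLF loss (exact permutation p = 0.01).

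Members were compared with joins to Sγ1, the switch region of the IgG1 gene, in the same libraries (16565 deletional junctions in a 20-kb window). Insertions were more frequent in internal Sμ joins in 10 of 10 libraries, by 6.93 points on average (exact permutation test by sign flips, p = 0.00195, adjusted p = 0.0469). In Sγ1 they were 17.2, 17.5 and 18.1% in WT, 8.81 and 10.9% in XLF-/-, 16.0, 16.8 and 18.5% in Shld1-/- and 10.2 and 10.9% in Shld1-/-XLF-/-. The difference lay in the core. It was 14.0 points for core members (exact permutation p = 0.00195), 1.55 points near the bait (exact permutation p = 0.293) and -1.65 points downstream (exact permutation p = 0.242). Without the rows flagged for mapping quality the difference over all members was 2.03 points (exact permutation p = 0.0117). Sγ1 preys were longer, with medians of 122 to 155.5 aligned bases against 69 to 106, and the part of this in the difference was not tested.

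Microhomology of 4 bp or more was rarer inside Sμ than at Sγ1 in 9 of 10 libraries, with a mean difference of -4.57 points (exact permutation test by sign flips, p = 0.00391, adjusted p = 0.0469). In Sγ1 it was 10.9, 12.1 and 11.1% in WT, 19.6 and 29.2% in XLF-/-, 28.2, 30.2 and 28.8% in Shld1-/- and 37.7 and 37.2% in Shld1-/-XLF-/-. The gap between the switch regions was -1.10, -1.52 and -1.21 points in WT, 0.34 and -3.00 in XLF-/-, -9.01, -5.84 and -3.30 in Shld1-/- and -7.41 and -13.6 in Shld1-/-XLF-/-. SHLD1 loss widened it by -6.98 points (exact permutation p = 0.0167, adjusted p = 0.05), and all 5 libraries without SHLD1 were below all 5 with it. The windows are unlike, since the 5-kb Sμ window leaves out part of the Sμ tail and the 20-kb Sγ1 window reaches beyond the core of Sγ1. Against that core alone (114569000 to 114577000) the SHLD1 difference in the gap did not pass. By region, the mean Sμ share over all libraries was 12.6% near the bait, 22.3% between the near region and the core, 20.6% in the core and 24.6% downstream. At Sγ1 the mean was 24.5%, so the lowest Sμ share was that near the bait. Downstream of the core the Sμ values did not differ detectably from Sγ1 (0.10 points, exact permutation p = 0.922), and the SHLD1 difference in the gap did not pass there (-3.75 points, exact permutation p = 0.533).

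Direct joins did not differ detectably between internal Sμ and Sγ1. Their difference was 1.56 points, positive in 7 of 10 libraries (exact permutation test by sign flips, p = 0.0898). Near the bait alone it was 4.68 points (exact permutation p = 0.00195) and in the core 2.81 points (exact permutation p = 0.00977), while downstream it was -3.33 points (exact permutation p = 0.102).

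**Figure D5:**
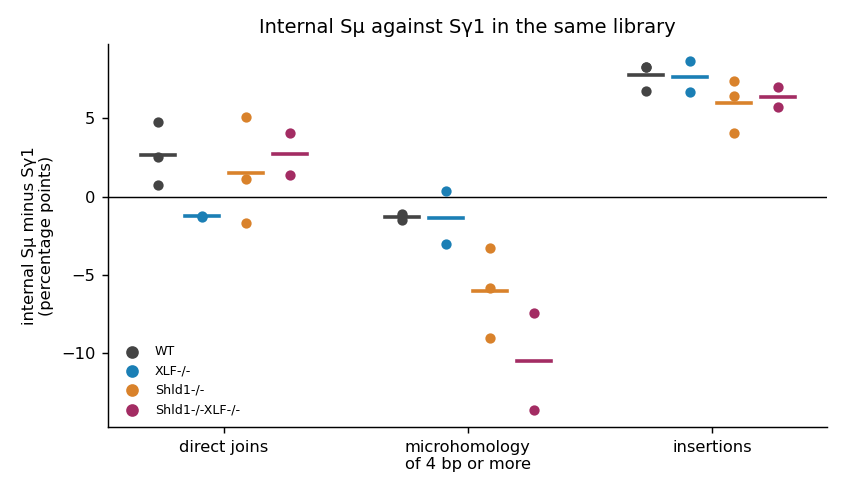
Internal Sμ minus Sγ1 in the same library (y axis, percentage points) for direct joins, microhomology of 4 bp or more and insertions, with points for libraries and bars for genotype means. Insertions are above 0 in all 10 libraries, and microhomology is farthest below 0 in the libraries without SHLD1.

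With the genotypes of the deposited labels, the groups mix libraries that the figures place apart. No SHLD1 difference then passed, and the downstream share differed by 5.50 points for SHLD1 (exact permutation p = 0.38) and 8.19 points for XLF (exact permutation p = 0.2). The values for direct joins were -1.59 points (exact permutation p = 0.76) and -7.59 points (exact permutation p = 0.283). In the 4 libraries with 1 genotype in both sources, the downstream share was 8.84% in WT 1, 21.7% in XLF-/- 2, 25.4% in Shld1-/- 2 and 33.1% in Shld1-/-XLF-/- 2, and direct joins were 31.4, 12.6, 17.7 and 7.5% in the same order. With 1 library per genotype these have no test, and they fall in the same order as the group means.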

How the data were processed

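CSR-HTGTS-seq libraries were deposited as 1 junction table per library, made by the authors with Bowtie2 against mm9 (versions are not given in the sources used here). Each row is a junction with other values, namely positions, strands and flags, as deposited by the authors, and not a normalized measurement. Rows flagged as duplicates or for mapping quality were kept. Microhomology was the last aligned bait base minus the first aligned prey base in the read plus 1, and negative values were insertions. Igh junctions lay between 114450000 and 114700000 and Sγ1 junctions between 114562000 and 114582000. A library was the unit of every test. SHLD1 status was permuted within XLF status (120 arrangements) or XLF within SHLD1 status (100), and sites within a library were compared by sign flips, all exact and two-sided (Python 3.11.15, numpy 2.4.6, pandas 2.3.3). The smallest possible p were 0.0167, 0.01 and 0.00195. Differences between SHLD1 effects with and without XLF were tested by the same permutation of SHLD1 status. Their p therefore refers to no SHLD1 effect in either background, not to equal effects. Where SHLD1 loss has an effect in both, such a test cannot decide whether the effects are equal. P-values were adjusted by Benjamini-Hochberg over the 24 planned tests and over 27 added after seeing the data (regions of distance, Ighm, AGCTG, long insertions, duplications). Those of alternative settings, which include joins within a single region, were in neither family and were not adjusted. No planned test of SHLD1 loss had an adjusted p below 0.05. Members and tests were chosen with earlier results of these data known. The bins, the positions with the most members and the pairs shown were taken by counts over all libraries. The tests were tried on simulated data, none of which held a difference between SHLD1 effects. The 3 libraries of 129s mice and the 2 lists of microhomology without positions were not used here. Counting error gives each share a 95% Wilson interval, such as 7.54 to 10.3% for 8.84% in WT 1, and PCR reads are not independent molecules. Alternatives covered the labels, flags, repeated junctions, distance limits, denominators, printed repeats and each library left out.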

Additional observations from a re-analysis of the deposited data

Results flagged for a closer look

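In 3 results an effect of SHLD1 or XLF loss differed between places or backgrounds, with an exact permutation p below 0.05 for the difference. Between backgrounds, that p refers to no SHLD1 effect in either, not to equal effects. XLF loss lowered insertions in the repeat core more than downstream of it (-9.59 points between the effects, exact permutation p = 0.01). Without the rows flagged for mapping quality this was -6.89 points (exact permutation p = 0.07). SHLD1 loss changed the gap in direct joins between the core and the downstream region in opposite directions with and without XLF (-22.3 points between the effects, exact permutation p = 0.0333). Its adjusted p was 0.0558, it was -20.1 points (exact permutation p = 0.0667) without the rows flagged for mapping quality, and it missed the threshold without WT 1, WT 2, Shld1-/- 2 or Shld1-/- 3. Downstream, direct joins were low in XLF-/- (6.72 and 6.97%) and Shld1-/-XLF-/- (6.91 and 7.37%) alike, so without XLF the gap changed in the core. Shld1-/-XLF-/- 2 had only 95 joins without insertion downstream and 78 in the core. SHLD1 loss widened the gap in microhomology of 4 bp or more between internal Sμ and Sγ1 (-6.98 points, exact permutation p = 0.0167, adjusted p = 0.05). This did not pass against the core of Sγ1 alone, and with the labels' genotypes it was -2.50 points (exact permutation p = 0.44). The Sμ window also leaves out part of the Sμ tail. No group had the 4 libraries needed to look for a single library apart from the others.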

How the results depend on the processing

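Differences below are in percentage points, or in bp for distance, and pass where the exact permutation p is below 0.05. Several results lost their call or changed sign under another genotype assignment. With the labels' genotypes, the XLF differences were -3.21 in the share beyond 1 kb, -7.59 in direct joins, 6.44 in microhomology of 4 bp or more, -3.47 in insertions and 8.19 in the downstream share, none passing, and -6.20 in the share of Igh junctions, now passing. The SHLD1 differences were 25.8 in median distance, -1.59 in direct joins, 1.79 in microhomology, 5.50 in the downstream share and -2.50 in the Sμ minus Sγ1 gap in microhomology, none passing, and of opposite sign in insertions (1.60) and the near share (0.34). The difference between SHLD1 effects with and without XLF changed sign for the share of Igh junctions (6.77), the share beyond 1 kb (2.13), median distance (66 bp), direct joins (-8.39), microhomology (1.21), insertions (-1.59) and the downstream share (9.67).

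In the 4 libraries with 1 genotype in both sources, which allow no test, SHLD1 differences changed sign for the share beyond 1 kb (-0.36) and the near share (2.54). The XLF differences moved to -7.86 for the share beyond 1 kb and -97 bp for median distance. Between the SHLD1 effects the differences were 5.23 for the share of Igh junctions, -1.15 for the share beyond 1 kb, -17.1 for microhomology and 2.56 for insertions, and Sμ minus Sγ1 was -0.21 for direct joins.

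Without duplicate rows, SHLD1 loss passed for insertions (-1.40) and Sμ minus Sγ1 for direct joins (1.89), as they did with identical junctions counted once (-1.49 and 2.03). Without rows flagged for mapping quality, SHLD1 loss passed for the share beyond 1 kb (9.88), and XLF differences changed sign for that share (0.82), median distance (33.4 bp) and the near share (-1.80). Without members within 200 bp of the bait end, SHLD1 loss passed for insertions (-2.36) and their Sμ minus Sγ1 gap (-2.46), the XLF difference in median distance was 107.1 bp, and the difference between SHLD1 effects was 4.15 for the share beyond 1 kb and 89.4 bp for median distance. With the limit at 500 bp, the XLF difference was -3.37 (not passing) and that between SHLD1 effects -7.04 (passing), and with 2000 bp, SHLD1 and XLF differences were 9.90 and 4.48. Measured from each own bait break, the XLF difference in median distance was 9.17 bp. As a share of the Sμ window, the differences were -26.2 for SHLD1, -17.5 for XLF and 9.56 between SHLD1 effects. Sμ minus Sγ1 in direct joins was -0.17 with insertions in the denominator and -0.10 against core Sγ1, where the SHLD1 differences in the gap were -0.98 for direct joins and -6.24 (not passing) for microhomology.

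Settings by region were chosen after seeing the data. Within 500 bp of the bait, SHLD1 differences were 3.05 for microhomology, 1.39 for insertions and 1.30 for their Sμ minus Sγ1 gap, the XLF difference in insertions was 0.90, and Sμ minus Sγ1 was 4.68 for direct joins and 1.55 for insertions. In the core, Sμ minus Sγ1 in direct joins was 2.81 and passed. Downstream, SHLD1 differences were -9.93 for direct joins, 11.6 for microhomology, 0.90 for insertions and, in the gaps, -3.75 for microhomology and 0.80 for insertions, the XLF differences were 7.28 for microhomology and 0.0035 for insertions, and Sμ minus Sγ1 was -3.33, 0.10 and -1.65 for direct joins, microhomology and insertions. The causes were not tested.

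With each library left out in turn, SHLD1 differences ranged from -2.58 to 1.01 for the share of Igh junctions, 1.204 to 3.36 for the share beyond 1 kb, 106.2 to 181.2 bp for median distance, 6.71 to 10.1 for microhomology, -1.94 to -0.95 for insertions and -2.09 to 0.88 for the near share. The XLF differences ranged from -6.29 to -4.13 for the share beyond 1 kb, -44.2 to 30.8 bp for median distance and 6.74 to 10.1 for microhomology, and those between SHLD1 effects from -102.3 to 47.7 bp for median distance and 0.68 to 2.65 for insertions. The downstream share kept its direction and its call for both genes in all of these, at 12.8 to 14.5 for SHLD1 and 8.67 to 10.4 for XLF, and direct joins did too, at -11.5 to -9.10 and -15.7 to -13.3.

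The labels give no replicate numbers, but the study's figures number its repeats. With the printed repeat as a replicate block, chosen after seeing the data, 4 pairs remained for each gene. An exact sign-flip permutation over them cannot go below p = 0.125, so these are values with no test. The SHLD1 difference in the share of Igh junctions changed sign (0.98), and it was 6.42 in insertions of 5 bases or more, 0.69 in preys at or above their bait break, 3.30 in AGCTG and -4.59 in the Sμ minus Sγ1 gap in microhomology. Between SHLD1 effects the differences were -0.61 for the share beyond 1 kb, 90.7 bp (opposite sign) for median distance, 11.6 for direct joins, 0.62 for insertions and -8.20 for the downstream share. The block turned no other difference in sign. The smallest library held 341 members, which limits the regional shares of the double mutants.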
